A study of Mus musculus with 12 samples.

Results

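Thyroid hormone and glucocorticoids act on the postnatal cortex through nuclear receptors, proteins that bind DNA and change transcription when their hormone is present. The genes described here are the 9 named members of these 2 hormone axes: the thyroid hormone receptor genes Thra and Thrb, the glucocorticoid receptor gene Nr3c1, the mineralocorticoid receptor gene Nr3c2, and 5 genes whose transcription responds to these hormones, Klf9, Hr, Fkbp5, Sgk1 and Tsc22d3. They were taken by gene symbol, and the set was chosen with earlier results of these data known. All 9 were among the 25834 genes listed at all 3 ages, and all 9 were among the 15734 genes that passed the filter on low values, set at 1 scaled CPM, reached by no fewer than 4 libraries.

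Polyadenylated RNA was sequenced from nuclei of the forebrain cortex of male mice at postnatal day 0, 14 or 28 (P0, P14 and P28), with 4 libraries at each age. Every group had the same genotype, CAG-Sun1/sfGFP +/- with NEX-Cre +/-. NEX-Cre makes Cre recombinase from the Neurod6 locus, which is active in excitatory cortical neurons, and Cre switches on a green fluorescent nuclear envelope protein by which the nuclei were captured (INTACT). By their labels the groups differed in age, and no hormone treatment is named. The deposited column names of P0 and P14 also hold WT, and those of P28 follow another scheme without it. Each age was deposited separately, so any difference in preparation or sequencing between the groups cannot be told apart from age. The samples are given as biological replicates, and 2 of them (P0 replicate 1 and P28 replicate 4) are named as merged.

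As background, thyroid hormone receptors sit on DNA with or without hormone, and those without hormone recruit corepressors. Thra yields both a hormone-binding receptor and a variant that does not bind hormone, while Thrb appears later in brain development. The glucocorticoid receptor waits in a chaperone complex in the cytoplasm until corticosterone binds it, and the mineralocorticoid receptor binds the same hormone more tightly. Klf9, a zinc finger transcription factor, and Hr, the corepressor hairless, are induced by thyroid hormone in brain, and Klf9 also by glucocorticoids. Fkbp5 encodes a co-chaperone that restrains the glucocorticoid receptor, Sgk1 a kinase that regulates ion channels and transporters, and Tsc22d3 the anti-inflammatory leucine zipper protein GILZ. All 3 are classical glucocorticoid targets.

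Nuclear receptors bind short DNA motifs, and 2 start windows are shown: that of Sgk1 because it holds a full glucocorticoid element, and one of Thrb, the gene with the largest change, as an example of a window with only a common half-site. RefSeq start windows (GRCm38.p6) were matched by symbol for 6 of the 9 genes, 14 windows in all, and the 250 bases before each start were searched on both strands. No window was matched for Thra, Hr or Nr3c1, so these genes were not searched. The glucocorticoid response element was searched as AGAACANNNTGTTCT, which contains the half-site AGAACA on each strand, and the thyroid hormone direct repeat as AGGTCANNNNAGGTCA, which contains the half-site AGGTCA. The full glucocorticoid element was found in 3 of 32851 windows of this length (0.00913%), and 1 of these 3 belonged to Sgk1, which has 6 windows. It lies 189 bases before that start, at chr10:21993640-21993889 on the plus strand, and is in capitals in the first sequence. The full thyroid direct repeat was in 5 of the 32851 windows (0.0152%) and in none of the 14. The single half-site AGGTCA was in 4607 of the 32851 windows and in 3 of the 14, among them a Thrb window at chr14:17660710-17660959 on the plus strand, where it is in capitals in the second sequence. The half-site AGAACA was in 16.1% of all windows and in 5 of the 14, belonging to Sgk1, Thrb and Tsc22d3. A match describes the letters only, not a bound site. Sequence outside these 250 bases was not searched, so elements elsewhere in any of the 9 genes would be missed.
Sgk1: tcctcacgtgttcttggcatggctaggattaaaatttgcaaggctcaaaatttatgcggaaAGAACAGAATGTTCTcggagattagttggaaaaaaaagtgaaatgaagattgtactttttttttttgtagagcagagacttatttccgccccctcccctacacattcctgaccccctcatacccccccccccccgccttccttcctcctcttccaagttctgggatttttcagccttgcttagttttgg
Thrb: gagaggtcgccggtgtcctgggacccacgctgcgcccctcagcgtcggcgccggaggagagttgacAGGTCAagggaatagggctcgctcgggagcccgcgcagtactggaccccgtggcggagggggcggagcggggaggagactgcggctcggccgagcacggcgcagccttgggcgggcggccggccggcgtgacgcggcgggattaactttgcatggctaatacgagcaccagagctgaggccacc

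Levels are given as scaled CPM, the reads of a gene relative to the library's reads over the shared genes (CPM), put on a common scale across the 12 libraries. Changes are log2 fold changes ± SE from limma, and adjusted p is Benjamini-Hochberg over the 15734 genes tested, with 0.05 as the threshold. Depth was 13195973 to 16599217 reads in P0 libraries, 25486861 to 33611769 in P14 libraries and 21569262 to 31215435 in P28 libraries. A count of 3 reads was worth 0.0893 to 0.227 CPM, and the 9 genes rested on at least 56 reads in every library. Neurod6, whose locus drives Cre, had 282 ± 5.86 scaled CPM in P0 nuclei, 62.5 ± 9.76 in P14 nuclei and 53.8 ± 3.31 in P28 nuclei (SD, n = 4), and the excitatory markers Slc17a7 and Camk2a were at 102 or more in every library. One library, P14 replicate 2, stood apart. Its mean correlation across genes with the other P14 libraries was 0.951, against at least 0.976 for every other library with its own age, and the summed level of each of the 7 cell type marker lists was lower in it than in the other P14 libraries. Of the 9 genes 8 had their lowest P14 level there, whereas 42.8% of all tested genes did.

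Between P0 and P14, 8 of the 9 genes changed: Thrb, Klf9, Hr, Nr3c1, Nr3c2 and Sgk1 rose, and Thra and Fkbp5 fell. In the same step 68.9% of all genes tested were called, 34.4% rising and 34.5% falling. The median log2 fold change of the 9 was 0.76, and that of all genes was 0.01, which the scaling holds near no change. The median absolute log2 fold change was 0.82 for the 9 and 0.66 for all genes. The same 8 genes had P0 and P14 levels that did not overlap, which held for 59.3% of all genes. Between P14 and P28 limma called 0 of the 9, against 18.3% of all genes (9.22% rising and 9.09% falling). Thrb and Nr3c1 had P14 and P28 levels that did not overlap, as did 27.4% of all genes. In that step 1 of the 9, Fkbp5, had an unadjusted p under 0.05, against 33.2% of all genes. Of the 9, edgeR called 0 and DESeq2 called 1, against 19.1% and 24.6% of all genes. Over the whole interval from P0 to P28 the count was again 6 rising and 2 falling, with 71.2% of all genes called, 35.7% rising and 35.6% falling. The P0 to P14 and P0 to P28 comparisons share the P0 libraries and so are not separate evidence.

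**Figure D1:**
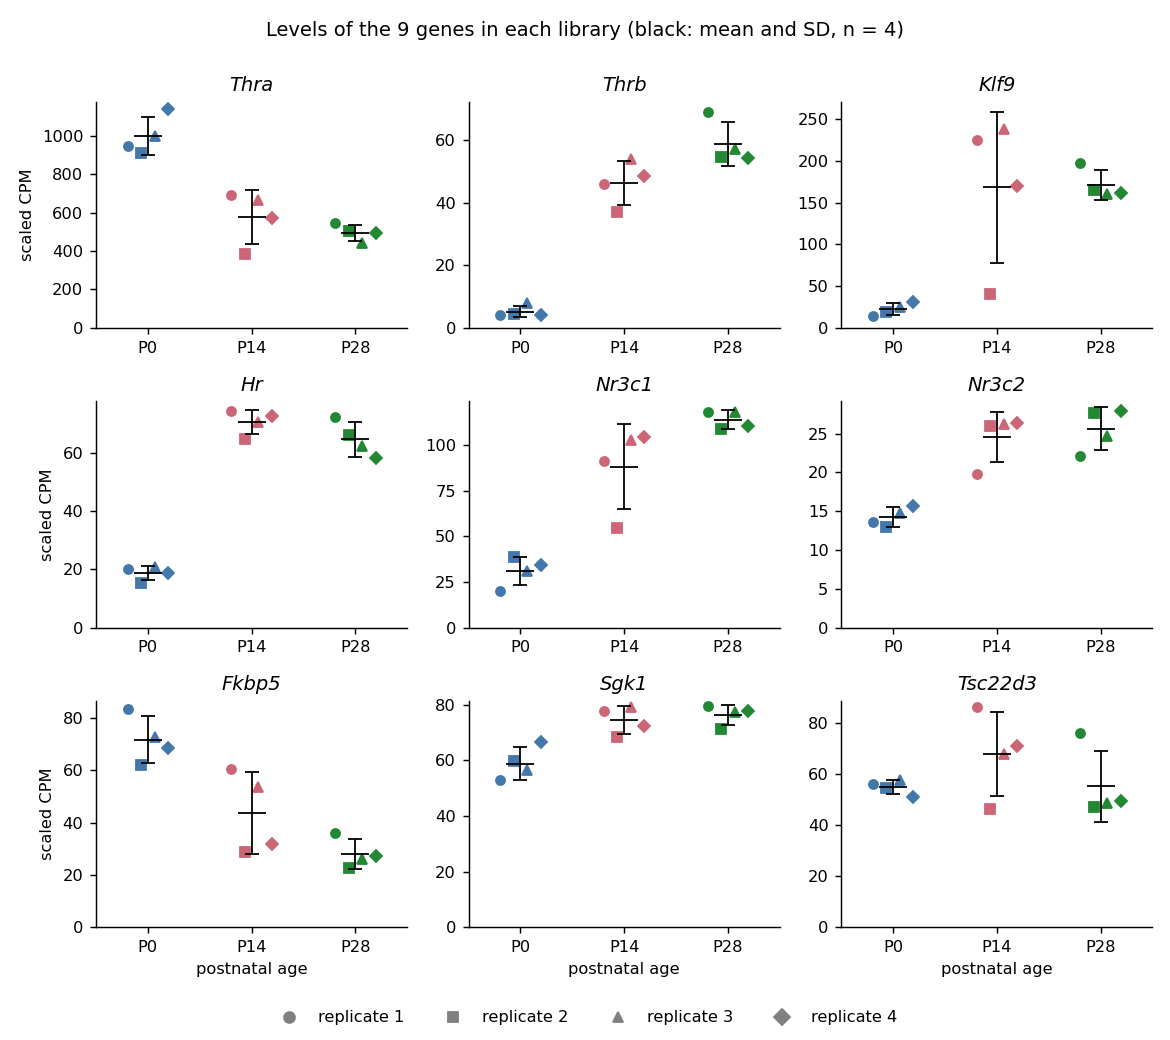
Scaled CPM of the 9 genes (vertical axes, from 0) by postnatal age (horizontal axes); each point is a library, its shape gives the replicate number, and black bars are the mean and SD of 4 libraries. Thrb rises from 5.20 to 46.5 and then stands at 58.8, Thra falls from 998 to 578 and then stands at 495, and the P14 square (replicate 2) lies at 40.2 for Klf9, below the other P14 libraries.

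The 2 thyroid hormone receptor genes moved in opposite directions. Thra (ENSMUSG00000058756, chromosome 11, 98740776 to 98769006 on GRCm38.p6) was at 947, 912, 996 and 1138 scaled CPM in P0 replicates 1 to 4. At P14 it was at 693, 384, 663 and 573, and at P28 at 545, 503, 442 and 492. All P0 libraries were above all later ones, while the P14 and P28 ranges overlapped. Thra fell by 0.82 ± 0.16 on the log2 scale from P0 to P14 (adjusted p = 4.92e-04) and by 1.01 ± 0.16 over the whole interval (adjusted p = 7.59e-05). The later step gave −0.19 ± 0.16 (adjusted p = 0.430). Without P14 replicate 2, which was the lowest of the P14 libraries, that later step was −0.38 and passed (adjusted p = 0.0114).

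Thrb (ENSMUSG00000021779, chromosome 14, 17659225 to 18040097) encodes the receptor that mediates much of the hormone's feedback and sensory effects. It was at 4.10, 4.59, 7.94 and 4.19 scaled CPM at P0, on 56 to 101 reads. The P14 libraries had 45.9, 37.2, 54.1 and 48.6, and those of P28 had 69.0, 54.7, 57.2 and 54.4. No later library came near the P0 range, and each P28 value was above each P14 value. The rise from P0 to P14 was 3.08 ± 0.19 on the log2 scale (adjusted p = 8.42e-09), or 8.44-fold (95% confidence interval 6.40 to 11.1). The absolute change was larger than that of 97.8% of all tested genes. The step to P28 did not pass (0.34 ± 0.19, adjusted p = 0.212), and its interval on the log2 scale ran from −0.06 to 0.74. P0 to P28 gave 3.42 ± 0.19 (adjusted p = 2.15e-09).

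The ratio of Thrb to Thra reads can be taken within each library, where it depends neither on the scaling nor on the separate normalization of the ages. It is a ratio of gene reads, in which the hormone-binding receptor of Thra and its variant are not separated. Reads of Thra may also hold some of an overlapping gene, described below. Per kilobase of exon, Thrb was at 0.301, 0.351, 0.555 and 0.256% of Thra in P0 replicates 1 to 4. The shares were 4.62, 6.75, 5.68 and 5.91% in P14 libraries and 8.83, 7.57, 9.03 and 7.70% in P28 libraries, so that the 3 ages did not overlap. The log2 ratio of reads went from −7.64 ± 0.48 at P0 to −3.61 ± 0.23 at P14 and −3.08 ± 0.13 at P28 (SD, n = 4). Both steps, of 4.02 and 0.54, and the whole interval of 4.56 had p = 0.029 in exact two-sided permutation tests of 4 against 4 libraries, the smallest value that 70 arrangements allow. Adjusted over the 6 ratio tests these were 0.0429, and each was between 0.0571 and 0.0857 when any 1 of P28 replicates 1 to 4 was left out, while the P14 to P28 change was then 0.50 to 0.58 and the P0 to P28 change at least 4.52. The P0 to P14 change does not use those libraries, and its adjusted p moved only because the 6 tests are adjusted together.

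Thra overlaps Nr1d1, the gene of the circadian repressor REV-ERB alpha, which is read from the opposite strand (ENSMUSG00000020889, chromosome 11, 98767932 to 98775377). The models share 263 of the 4614 exon bases of Thra in the GENCODE annotation of build NCBIM37. Libraries were stranded per the labels, but the sources used here do not give whether counting used the strand, so the levels of this pair could hold reads of each other. Nr1d1 had a mean of 18.2 ± 4.37 scaled CPM in P0, 52.2 ± 6.22 in P14 and 107 ± 23.4 in P28 libraries (SD, n = 4). It rose in both steps, by 1.52 ± 0.18 (adjusted p = 4.70e-06) and by 1.01 ± 0.18 (adjusted p = 0.00208), while Thra was lower at the later ages. Its share in the reads of Thra was not tested. Nr3c2 overlaps Gm10649 on the opposite strand by 247 exon bases, and that gene was at no more than 1.86 scaled CPM.

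**Figure D2:**
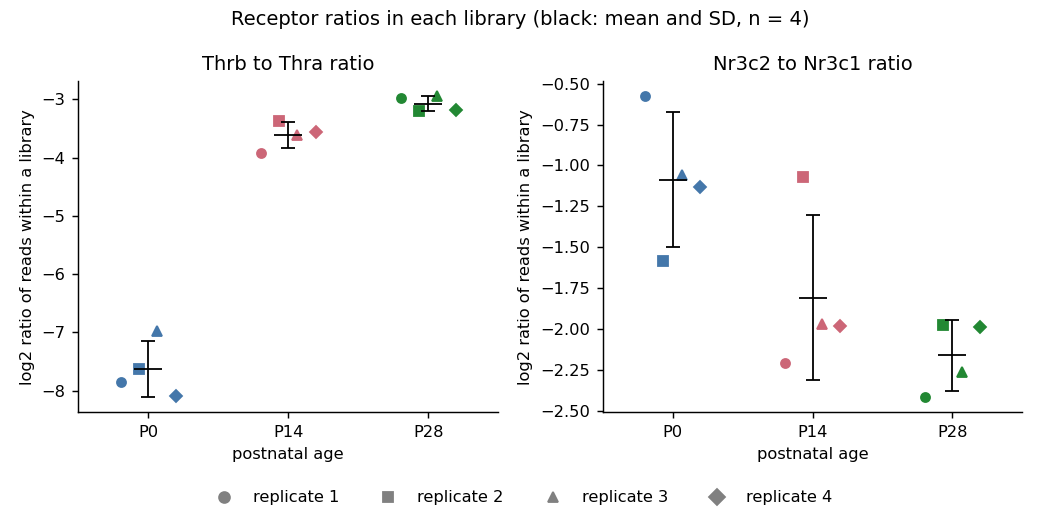
Log2 ratio of Thrb to Thra reads (left) and of Nr3c2 to Nr3c1 reads (right) within each library, by postnatal age; points are libraries with the replicate number as shape, and black bars are the mean and SD of 4 libraries. The left ratio climbs from −7.64 to −3.61 and −3.08 with no overlap between ages, and the right one declines from −1.09 to −1.81 and −2.16 with P14 replicate 2 at the level of the P0 libraries.

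Both corticosteroid receptor genes were higher at P14 than at P0. Nr3c1 (ENSMUSG00000024431, chromosome 18, 39410545 to 39519421), the glucocorticoid receptor gene, was at 20.3, 38.6, 30.8 and 34.5 scaled CPM at P0. At P14 it was at 91.6, 54.6, 103 and 104, and at P28 at 118, 109, 118 and 111. The 3 ages did not overlap, and the widest spread was at P14 because of replicate 2. Nr3c1 rose by 1.49 ± 0.21 from P0 to P14 (adjusted p = 2.99e-05) and by 1.90 ± 0.21 to P28 (adjusted p = 2.50e-06), 3.72-fold over the whole interval. The later step was 0.41 ± 0.21 (adjusted p = 0.190).

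Nr3c2 (ENSMUSG00000031618, chromosome 8, 76898083 to 77245012), the mineralocorticoid receptor gene, was at 13.6, 12.9, 14.8 and 15.7 scaled CPM at P0. It stood at 19.8, 26.0, 26.2 and 26.4 at P14 and at 22.2, 27.7, 24.7 and 27.96 at P28, so that the later ages overlapped each other but not P0. The rise to P14 was 0.76 ± 0.12 on the log2 scale (adjusted p = 1.03e-04), or 1.69-fold, and the step to P28 was 0.06 ± 0.12 (adjusted p = 0.760). It was the member whose level in P14 replicate 2 lay within the range of the other P14 libraries.

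The ratio of Nr3c2 to Nr3c1 was lower at P28 than at P0. On the log2 scale it was −1.09 ± 0.41 at P0, −1.81 ± 0.50 at P14 and −2.16 ± 0.22 at P28 (SD, n = 4). The change of −1.07 over the whole interval had an exact two-sided permutation p of 0.029 (0.0429 adjusted over the 6 ratio tests), and it did not pass when any 1 of the P28 libraries was left out (adjusted p = 0.0857, change −0.98 to −1.13). The separate steps did not pass, at −0.72 for P0 to P14 (exact permutation p = 0.0857, adjusted 0.103) and −0.35 for P14 to P28 (exact permutation p = 0.171). P14 replicate 2 had a log2 ratio of −1.07, and the other P14 libraries lay between −2.21 and −1.97. Without it the steps were −0.97 and −0.11, and neither passed (adjusted p = 0.0686 and 0.43). Per kilobase of exon, Nr3c2 was at 38.3 to 76.9% of Nr3c1 at P0 and at 21.5 to 29.2% at P28.

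The genes induced by thyroid hormone, Klf9 and Hr, were both several-fold higher at P14. Klf9 (ENSMUSG00000033863, chromosome 19, 23141226 to 23168129) was at 14.7, 19.6, 25.6 and 31.2 scaled CPM at P0. At P14 it was at 225, 40.2, 238 and 170, and at P28 at 197, 165, 160 and 161. Replicate 2 of P14 reached 19.1% of the mean of the other P14 libraries and was still above the highest P0 library. Klf9 rose by 2.63 ± 0.44 from P0 to P14 (adjusted p = 1.31e-04) and by 2.93 ± 0.44 to P28 (adjusted p = 4.52e-05), and the step between P14 and P28 was 0.30 ± 0.44 (adjusted p = 0.667). Without P14 replicate 2 the rise to P14 was 3.22 and kept its call, and the later step turned to −0.29 and did not pass (adjusted p = 0.301). Its rise to P14 was 2.37 to 3.22 on the log2 scale over the 27 alternatives, all of which kept the call.

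Hr (ENSMUSG00000022096, chromosome 14, 70554056 to 70573548) had less spread. Its levels were 19.9, 15.2, 20.8 and 18.7 scaled CPM at P0, 74.3, 64.6, 70.4 and 72.5 at P14, and 72.2, 66.0, 62.2 and 58.1 at P28. The P0 libraries were separate from all others, while P14 and P28 overlapped. The increase to P14 was 1.90 ± 0.11 (adjusted p = 5.37e-09), or 3.72-fold (95% confidence interval 3.16 to 4.39), and that to P28 was 1.77 ± 0.11 (adjusted p = 7.14e-09). P14 to P28 gave −0.13 ± 0.11 (adjusted p = 0.443).

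The 3 glucocorticoid targets did not share a direction. Fkbp5 (ENSMUSG00000024222, chromosome 17, 28398753 to 28486149) declined, with 83.5, 62.0, 72.7 and 68.7 scaled CPM at P0, 60.6, 29.0, 53.8 and 31.6 at P14, and 36.0, 22.7, 26.1 and 27.3 at P28. The lowest P0 library (62.0) was just above the highest P14 library (60.6), and P14 fell into a higher and a lower pair of libraries. The change to P14 was −0.77 ± 0.22 (adjusted p = 0.00700) and that to P28 was −1.35 ± 0.22 (adjusted p = 9.45e-05), which leaves 0.392 of the P0 level. P14 to P28 gave −0.58 ± 0.22 and did not pass (adjusted p = 0.0843), but it passed without P14 replicate 2 (−0.75, adjusted p = 0.0126) and with DESeq2 (−0.64, adjusted p = 0.0297).

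Sgk1 (ENSMUSG00000019970, chromosome 10, 21882184 to 21999903), whose start window shown above holds the full glucocorticoid element, changed least among those called. It was at 52.8, 59.6, 56.3 and 66.6 scaled CPM at P0, 77.6, 68.2, 79.3 and 72.4 at P14, and 79.4, 71.2, 77.3 and 77.6 at P28. Every later library was above every P0 library, the closest being 68.2 against 66.6. It rose by 0.34 ± 0.09 to P14 (adjusted p = 0.00423), or 1.26-fold, and the step to P28 was 0.04 ± 0.09 (adjusted p = 0.784). Of all tested genes, 27.9% had a smaller absolute change than Sgk1 from P0 to P14.

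Tsc22d3 (ENSMUSG00000031431, chromosome X, 140539528 to 140600522) did not pass in any comparison. It was at 55.9, 54.5, 57.5 and 51.1 scaled CPM at P0, 86.3, 46.4, 67.7 and 70.9 at P14, and 76.0, 47.0, 48.6 and 49.3 at P28. Outside replicate 2 the P14 libraries were all above P0, and P28 replicate 1 was above the other P28 libraries. The log2 fold changes were 0.27 ± 0.18 to P14 (adjusted p = 0.191), −0.29 ± 0.18 from there to P28 (adjusted p = 0.282) and −0.01 ± 0.18 from P0 to P28 (adjusted p = 0.949, 95% confidence interval −0.40 to 0.38). Without P14 replicate 2 both steps passed, at 0.44 (adjusted p = 0.0108) and −0.46 (adjusted p = 0.0276).

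**Figure D3:**
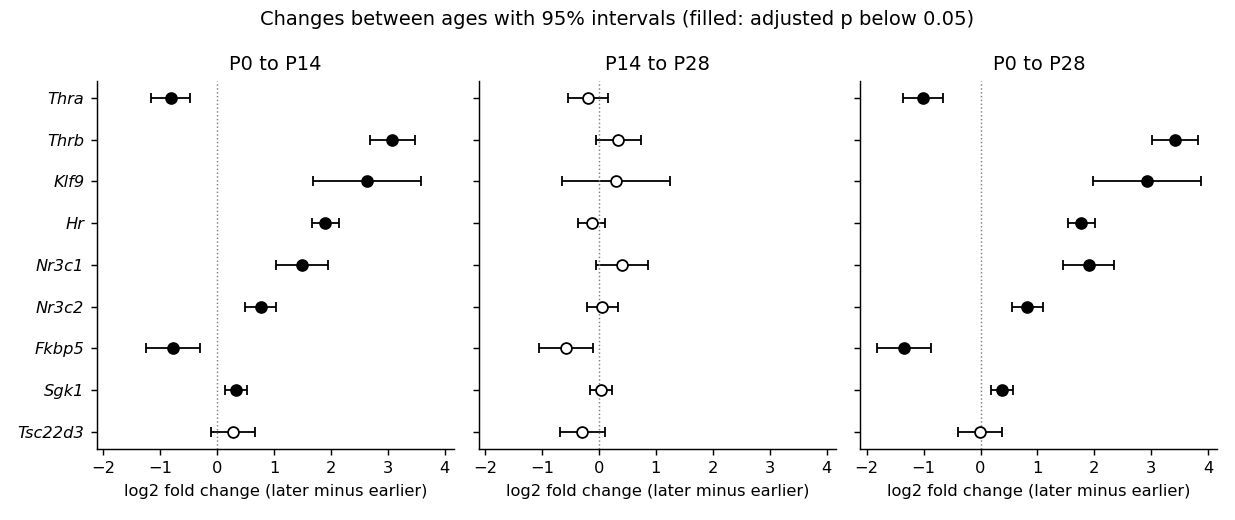
Log2 fold changes of the 9 genes (horizontal axes, later minus earlier age) with 95% confidence intervals from limma in the 3 comparisons; filled points passed an adjusted p of 0.05 over all genes tested. In the outer panels 8 of 9 points are filled, from Fkbp5 and Thra on the left to Thrb at 3.08 and 3.42 on the right, and in the middle panel none is filled.

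Separate normalization of the 3 deposited tables touches some of the calls. On the deposited values without rescaling, the median of all genes shifted by 0.47 from P0 to P14, by −0.20 from P14 to P28 and by 0.27 from P0 to P28, and calls were 8495 rising and 3190 falling, 672 and 3858, and 7148 and 4155, in that order. With the scaling used here they were 5412 and 5436, 1450 and 1431, and 5610 and 5597. On those unscaled values the falls of Thra (−0.33, adjusted p = 0.0797) and Fkbp5 (−0.29, adjusted p = 0.250) from P0 to P14 lost their calls and Tsc22d3 gained one (0.75, adjusted p = 0.00203). Fkbp5 (−0.78, adjusted p = 0.0198) and Hr (−0.33, adjusted p = 0.0398) gained calls from P14 to P28. The rises of Thrb, Klf9, Hr, Nr3c1, Nr3c2 and Sgk1 to P14 and all 8 calls from P0 to P28 held in each of the 27 alternatives run.

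Compared per kilobase of exon, the order of the genes differed between ages. Thra was the most abundant at each age, at 216 ± 21.6 scaled CPM per kilobase at P0, 125 ± 30.2 at P14 and 107 ± 9.16 at P28 (SD, n = 4), with no overlap with the next gene. At P0 it was followed by Tsc22d3 (12.6 ± 0.626), Sgk1 and Fkbp5 (11.4 ± 1.42), which overlapped, and then by Klf9, Nr3c1, Hr and Nr3c2, each overlapping its neighbour, with Thrb lowest at 0.786 ± 0.277 and apart from the rest. At P28 Klf9 was next after Thra (52.3 ± 5.46) and apart from both neighbours. Sgk1, Nr3c1 and Tsc22d3 followed with overlapping ranges, then Hr (9.34 ± 0.864) and Thrb (8.88 ± 1.05), which overlapped, and last Fkbp5 (4.44 ± 0.899) and Nr3c2 (3.96 ± 0.424), which overlapped as well. The P14 order had Klf9 second with a range that reached Tsc22d3 and, through Sgk1 and Nr3c1, a run of overlapping neighbours down to Hr (10.2 ± 0.604). Thrb and Fkbp5 overlapped below it, and Nr3c2 was lowest (3.80 ± 0.493).

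Genes that supply thyroid hormone to cells changed in both directions. Of 10 genes of transport and metabolism 9 were tested, and from P0 to P14 5 rose and 4 fell (median log2 fold change 0.38). In that step 34.4% of all genes tested rose and 34.5% fell. Slc7a5, an amino acid transporter that also carries thyroid hormone, fell from 502 ± 48.4 to 63.0 ± 21.5 scaled CPM (−3.05 ± 0.19, adjusted p = 1.55e-08). Slco1c1, the organic anion transporter of the blood-brain barrier that takes up thyroxine, went from 197 ± 55.8 to 28.2 ± 6.35 (−2.77 ± 0.22, adjusted p = 1.22e-07). Vessel markers moved with these 2 genes, as all 7 fell and their summed level was 841 to 1398 in P0 libraries and 65.2 to 189 in P14 libraries, with none at 0. Their part in these falls was not tested. In a bulk sample fewer cells of a type and less RNA per cell cannot be told apart.

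The hormone-handling genes that rose included Dio2, the deiodinase that makes active T3, from 12.8 ± 0.360 to 52.8 ± 15.4 scaled CPM (1.96 ± 0.19, adjusted p = 8.96e-07). Dio2 then fell to 26.2 ± 6.46 at P28 (−0.99 ± 0.19, adjusted p = 0.00398). Astrocyte markers, with none of 7 at 0, summed to between 432 and 617 scaled CPM in P0, between 1307 and 2328 in P14 and between 1328 and 1421 in P28 libraries. Slc1a2 carried most of this shift, and without it the sums were 293 to 462, 270 to 733 and 256 to 318, which overlap. Of the 7 markers 4 rose and 0 fell from P0 to P14, and 0 rose and 2 fell from P14 to P28. Their part in the changes of Dio2 was not tested. Crym, a cytosolic protein that binds T3, followed the same course, from 58.3 ± 7.77 to 151 ± 20.7 and then 91.5 ± 5.08, rising by 1.37 ± 0.11 (adjusted p = 2.08e-07) and falling by 0.71 ± 0.11 (adjusted p = 0.00125). Ttr, the carrier transthyretin, rose from 1.80 ± 2.84 to 101 ± 50.2 (6.01 ± 0.59, adjusted p = 9.44e-07) with a wide spread at both ages. From P14 to P28, 2 genes of this list rose and 3 fell, beside 9.22% and 9.09% of all genes. Without P14 replicate 2 it was 1 and 4 of the list, and 25.8% of all genes were then called. On the deposited values without rescaling it was 0 and 3 of the list, beside 672 and 3858 of all genes tested. In the main fit Slc7a8 (0.37 ± 0.11, adjusted p = 0.0306) and Dio3, the inactivating deiodinase (0.81 ± 0.26, adjusted p = 0.0443), were the 2 that rose. Slco1c1 fell again (−1.50 ± 0.22, adjusted p = 7.51e-04).

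Partners and coregulators of the receptors changed by less. Of 13 genes 1 rose and 6 fell from P0 to P14 (median −0.32), beside 34.4% and 34.5% of all genes. The counts of the list became 4 and 3 on the deposited values without rescaling. The transducin beta-like corepressor gene Tbl1x (−0.84 ± 0.08, adjusted p = 3.72e-07), the mediator subunit gene Med1 (−0.67 ± 0.07, adjusted p = 1.75e-06) and the coactivator gene Ncoa1 (−0.88 ± 0.11, adjusted p = 1.37e-05) fell. The histone deacetylase gene Hdac3 rose (0.65 ± 0.18, adjusted p = 0.00552). Between P14 and P28, 2 rose and 1 fell, beside 9.22% and 9.09% of all genes. Without P14 replicate 2 it was 4 and 1 of the list, with 25.8% of all genes called. Rxra, a retinoid X receptor that pairs with thyroid receptors, rose in that step, from 14.7 ± 3.96 to 26.5 ± 1.54 scaled CPM (0.88 ± 0.19, adjusted p = 0.00689).

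Other genes known to respond to T3 in brain mostly rose in the first step. Of 13 listed 12 were tested, and 9 rose and 2 fell from P0 to P14, beside 34.4% and 34.5% of all genes. The list median was 1.35, against 0.01 for all genes, which the scaling holds near no change. This list, like the others, was chosen with earlier results of these data known. Nrgn, the postsynaptic protein neurogranin, rose from 104 ± 30.4 to 1135 ± 84.3 scaled CPM (3.49 ± 0.16, adjusted p = 6.27e-10). Nefh, the heavy neurofilament gene, rose from 4.12 ± 0.729 to 26.8 ± 4.11 (2.56 ± 0.16, adjusted p = 9.59e-09). Mbp, a myelin protein gene, rose from 36.9 ± 1.81 to 911 ± 323 (4.53 ± 0.23, adjusted p = 2.00e-09). It is itself an oligodendrocyte marker, and the 8 markers of that cell type summed to between 88.3 and 98.9 in P0 libraries, with Opalin at 0 in all 4, and to between 969 and 2412 in P14 libraries. Their part in the rise of Mbp was not tested. The 2 that fell were Gper1 (−1.72 ± 0.23, adjusted p = 1.83e-05), a membrane estrogen receptor gene, and Stac2 (−0.45 ± 0.16, adjusted p = 0.0240). Stac2 then rose from 14.8 ± 2.61 to 43.5 ± 4.15 at P28 (1.53 ± 0.16, adjusted p = 8.75e-05), and so did the circadian transcription factor gene Dbp (1.06 ± 0.20, adjusted p = 0.00346). In that later step 3 rose and 1 fell, beside 9.22% and 9.09% of all genes in the main fit. Without P14 replicate 2, where 25.8% of all genes were called, it was 3 and 2 of the list.

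**Figure D4:**
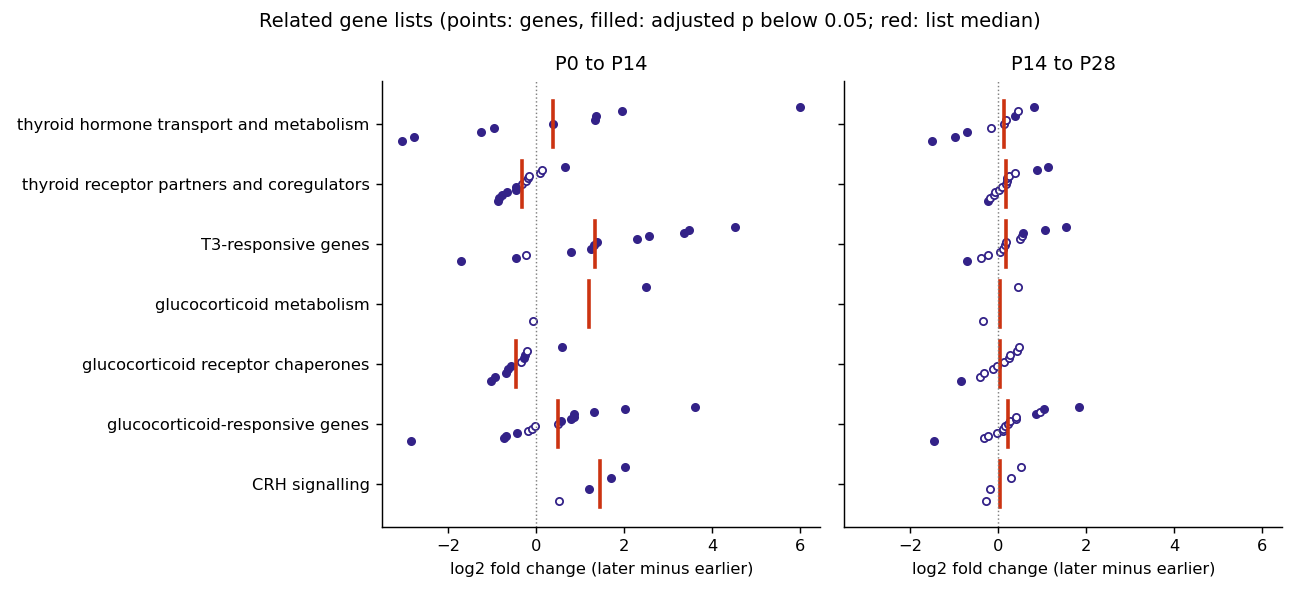
Log2 fold changes (horizontal axes, later minus earlier age) of the tested genes of 7 related lists for P0 to P14 (left) and P14 to P28 (right); each point is a gene, filled where adjusted p was below 0.05, and the red bar is the list median. Medians in the left panel run from −0.45 for the receptor chaperones to 1.45 for CRH signalling, and in the right panel all lie between 0.04 and 0.22.

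Among the chaperones that hold the glucocorticoid receptor ready for hormone, 7 of 10 fell and 1 rose in the first step (median −0.45). Of all genes tested 34.5% fell and 34.4% rose. With scaling to the library total, TMM factors, quantile normalization or edgeR 5 of the chaperones fell and 1 rose. On the deposited values without rescaling 2 fell and 2 rose, with a median of 0.03. Fkbp4, which promotes receptor transport where Fkbp5 restrains it, fell from 187 ± 10.8 to 91.6 ± 14.03 scaled CPM (−1.04 ± 0.12, adjusted p = 4.84e-06). Hsp90ab1, the constitutive HSP90 gene, fell from 2225 ± 164 to 1181 ± 267 (−0.94 ± 0.16, adjusted p = 1.15e-04), and St13 fell as well (−0.68 ± 0.14, adjusted p = 6.73e-04). Ppid, a cyclophilin gene, was the member that rose (0.60 ± 0.16, adjusted p = 0.00542). From P14 to P28 18.3% of all genes were called. Of these chaperones only Ptges3, the p23 co-chaperone gene, changed in that step (−0.85 ± 0.10, adjusted p = 1.31e-04). When P14 replicate 2 was left out 2 fell, and 25.8% of all genes were called. Of the enzymes that regenerate or inactivate corticosterone, Hsd11b1, which regenerates it, rose from 1.39 ± 0.477 to 10.3 ± 2.96 (2.49 ± 0.22, adjusted p = 3.16e-07). Hsd11b2, the inactivating enzyme, was at no more than 0.437 scaled CPM and was not tested.

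Glucocorticoid-responsive genes outside the 9 went both ways. Of 16 listed 15 were tested, and 7 rose and 4 fell from P0 to P14 (median 0.49), beside 34.4% and 34.5% of all genes. On the deposited values without rescaling 8 rose and 1 fell, beside 8495 and 3190 of all genes tested. Fam107a, an actin-binding stress-response gene, increased from 8.45 ± 1.56 scaled CPM to 119 ± 57.1 (3.62 ± 0.29, adjusted p = 1.58e-07), and the metallothionein gene Mt1 from 12.9 ± 3.48 to 54.6 ± 15.9 (2.03 ± 0.20, adjusted p = 9.80e-07). Angptl4, a regulator of lipoprotein lipase, fell from 21.9 ± 8.01 to 2.74 ± 1.62 (−2.85 ± 0.34, adjusted p = 5.74e-06), and Ddit4, an inhibitor of mTOR signalling, fell by 0.72 ± 0.12 (adjusted p = 1.30e-04). In the same step 4 of 7 astrocyte, 8 of 8 oligodendrocyte and 7 of 7 microglia markers rose and 7 of 7 vessel markers fell. Microglia markers, none of them at 0, summed to between 25.5 and 36.7 scaled CPM in P0 libraries and between 44.7 and 91.6 in P14 libraries. The part of these cell types in the changes of this list was not tested. The later step had 3 rising and 1 falling, beside 9.22% and 9.09% of all genes in the main fit. Without P14 replicate 2, where 25.8% of all genes were called, it had 3 and 2. The phosphatase gene Dusp1 rose from 26.0 ± 4.67 to 93.5 ± 11.4 (1.83 ± 0.14, adjusted p = 9.92e-06) and the clock gene Per1 from 99.8 ± 23.7 to 205 ± 34.2 (1.05 ± 0.17, adjusted p = 0.00130). Both are also induced by neuronal activity. Of the 4 genes of corticotropin-releasing hormone (CRH) signalling, 3 rose from P0 to P14 and 0 changed from P14 to P28. For all genes the shares were 34.4% rising in the first step and 18.3% called in the later one. The receptor gene Crhr1 rose from 24.6 ± 0.709 to 103 ± 21.4 (2.02 ± 0.12, adjusted p = 7.34e-09).

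Some genes had nearly the same course as a member over the 12 libraries. Likeness was measured as the root mean square difference of log2 levels after each gene was centred on its own mean, among 12053 genes with a mean of at least 5 scaled CPM. The libraries share 3 ages, so for genes that changed between ages the measure largely reflects age. Tsc22d3 was called in no comparison, and it varied among libraries of the same age (46.4 to 86.3 scaled CPM at P14). The nearest to Thra were Pcyt1b (0.0855), Sh3rf3 and Gnb1, and those nearest to Thrb included Ell2 (0.179) and Il34. Klf9 was approached most by Akap6 (0.264), Dgkb and Kcnh1, and Hr by Lysmd2 (0.0810), Hagh and Trnp1. Nr3c1 had Rora (0.128), Frrs1l and Trhde nearest, and Nr3c2 had Cln6 and Pla2g12a among its nearest. For Fkbp5 these were Anp32e (0.233), Eola1 and Emx2, for Sgk1 Strn4 (0.0579), Slc44a1 and Ogdh, and for Tsc22d3 Igfbp4 (0.148), Prex1 and Mrm2.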

How the data were processed

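RNA-seq of Cre-tagged cortical nuclei was deposited as 3 tables, 1 per age. The unit of the deposited values is a signal, the normalized read count of a gene, that is reads divided by 1 factor per library. The submitters' processing notes name DESeq2 and mm10. The sources used here do not give the aligner, counter, strand setting or annotation. Within 0.05 reads, 100% of values were whole multiples of the smallest value of their column, so reads were recovered in all 12 libraries. All 12 columns matched a sample.

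Each column was divided by its total over the 25834 shared genes and scaled by a median-of-ratios factor (0.936 to 1.04). Log2(scaled CPM + 0.5) was tested with limma 3.58.1 in R 4.3.3 (trend, robust, all 12 libraries, age as factor, no block), two-sided. The pseudocount makes fold changes of low genes too small. Among 27 alternatives, edgeR 4.0.16 and DESeq2 1.42.0 were run on the recovered reads. On these reads edgeR called 10834 genes from P0 to P14 and 3002 from P14 to P28. Ratios within libraries were tested by exact permutation. The code was tested on simulated data. Litters are not named, so p-values measure the spread between these samples only.

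Members and lists were chosen with earlier results of these data known, so no p-value is adjusted over a list alone. Genes named are the 9 members, genes that overlap them, up to 3 rising and 3 falling genes of a list per comparison with the smallest adjusted p (of which the text prints a part), and for each member the 3 genes most like it. Some genes that this rule names are not reported here. Exon lengths come from GENCODE on NCBIM37 and coordinates from RefSeq on GRCm38.p6, in which all 9 were matched by symbol.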

Additional observations from a re-analysis of the deposited data

Results flagged for a closer look

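In 33 sets of 4 libraries (the 9 genes and the 2 ratios at each age), 4 had 1 library separated from the other libraries by more than Dixon's critical share of the whole range, where chance gives about 1 in 20. Thrb was at 7.94 scaled CPM in P0 replicate 3, against 4.10 to 4.59 in the other P0 libraries. Klf9 was at 197 in P28 replicate 1, against 160 to 165. Nr3c2 was at 19.8 in P14 replicate 1, against 26.0 to 26.4. Tsc22d3 was at 76.0 in P28 replicate 1, against 47.0 to 49.3. That library also had the highest summed oligodendrocyte markers at P28, 3041 scaled CPM against 1874 to 2347. It was highest as well for the inhibitory neuron, oligodendrocyte precursor, microglia and vessel markers, but not for the excitatory neuron or astrocyte markers. The part of these cell types in the level of Tsc22d3 was not tested.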

How the results depend on the processing

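Of 27 member results (9 genes in 3 comparisons), 20 kept their side of the threshold in all 27 alternatives, 7 changed side in at least 1, and no called change turned direction. Genes called from P14 to P28 went from 2881 to 4530 on the deposited values without rescaling and to 1775 without both merged libraries, and ranged from 1810 to 4067 when 1 library was left out. Members called in that step were 2 on the deposited values, 1 with DESeq2, and 0 to 3 when 1 library was left out. The 3 were those without P14 replicate 2, the fit in which 4067 genes were called. Ratio changes without both merged libraries were 3.95, 0.57 and 4.52 for Thrb to Thra (P0 to P14, P14 to P28, P0 to P28) and −0.96 for Nr3c2 to Nr3c1 from P0 to P28, none passing (adjusted p = 0.15). With 1 library left out they ranged from 3.87 to 4.24, 0.44 to 0.62, 4.41 to 4.78 and −1.24 to −0.90. Replicate numbers did not pair the samples: same-numbered libraries deviated together with r of −0.51 to 0.36, over 0.1 in 3 of 12 pairs, and in 5 of 24 cases a library correlated best with its own number. With the replicate block 1 member, Fkbp5, was called from P14 to P28 (adjusted p = 0.0261). The block left the ratio changes at 4.02, 0.54, 4.56 and −1.07, where swaps within 4 pairs cannot reach the threshold (adjusted p = 0.15).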
